A study of Rattus norvegicus with 210 samples.

Results

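The preoptic area (POA) of female rats at postnatal day (PND) 42 was compared between rats exposed perinatally to 3 mg/kg bw/day of ketoconazole (KTZ), called K3 here, and rats exposed to vehicle, called control. The comparison holds 10 of the 210 libraries of the series, the 5 POA libraries of K3 at this age and the 5 of control, chosen by the tissue, age and dose in the labels. The series measured messenger RNA in the POA and the mediobasal hypothalamus (MBH) of Sprague-Dawley females at PND22, PND42 and PND90 after exposure to vehicle, to 3 doses of KTZ or to 3 doses of the synthetic estrogen diethylstilbestrol, with 5 libraries in each group. The dams, not the pups, were dosed by gavage, with KTZ in corn oil or with corn oil alone, each day from gestation day 7 to birth and again from the day after birth to PND22, so the rats of both groups had been without exposure for some weeks. Each library comes from the dissected tissue of 1 numbered rat, and the labels do not tie rats to litters, so p-values measure the spread between these libraries. POA tissue is a mixture of cells, in which fewer cells of a type and less RNA per cell cannot be told apart.

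The POA is the rostral part of the hypothalamus and in rodents holds most of the neurons that release gonadotropin-releasing hormone (GnRH), the peptide that starts the pituitary-gonadal cascade at puberty. These neurons lie scattered from the medial septum and the diagonal band to the POA and receive kisspeptin, neurokinin, GABA and glutamate inputs, and neighbouring neurons hold receptors for sex steroids. KTZ is an azole antifungal agent that inhibits cytochrome P450 enzymes, among them enzymes of steroid and cholesterol synthesis.

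The control libraries held 15592294 to 16979710 counted reads and the K3 libraries 15972813 to 20184414. No pair of libraries of a group agreed within counting noise. The first principal component of the 10 libraries held 24.9% of the variance and ran from -23.65 to -6.04 in control and from 9.81 to 24.27 in K3, so the groups did not overlap on it. Of the 14 POA marker genes of the list used here 13 passed the filter on low counts. A gene of low level can also pass it, so this does not measure how much POA tissue a library holds. Levels are given in CPM, the reads of a gene scaled to a common library total. The summed level of the POA list ran from 388 to 583.5 CPM in control and from 309.9 to 454.4 CPM in K3, with overlap. The mean log2 CPM of 5 transcription factor genes of the mammillary region, which lies at the other end of the hypothalamus, was between -0.37 and -0.20 in control and between -0.54 and -0.05 in K3, against 1.93 to 2.63 in the control MBH of this age.

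At an adjusted p under 0.05, 752 of 14382 genes tested were called in K3 against control, 517 higher and 235 lower, which is 5.23% of the genes tested, 3.59% higher and 1.63% lower. Most changes were small. The median log2 fold change was 0.45 in the genes called higher and -0.41 in those called lower, against -0.01 over all genes, and 46 genes rose and 24 fell by at least 1 on the log2 scale. In 571 of the called genes, 390 higher and 181 lower, the 5 values of one group did not overlap the 5 of the other, while over all genes tested 4.62% did not overlap with K3 higher and 2.66% with K3 lower. The number of calls depended on single libraries, as the plot of calls without each library shows. It was 177 without control replicate 1, 211 without K3 replicate 1, 219 without K3 replicate 2, 289 without control replicate 4, 328 without K3 replicate 3, 465 without control replicate 5 and 477 without control replicate 3. Of the 752 genes, 109 higher and 24 lower were called in all 10 fits that left out 1 library.

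**Figure D1:**
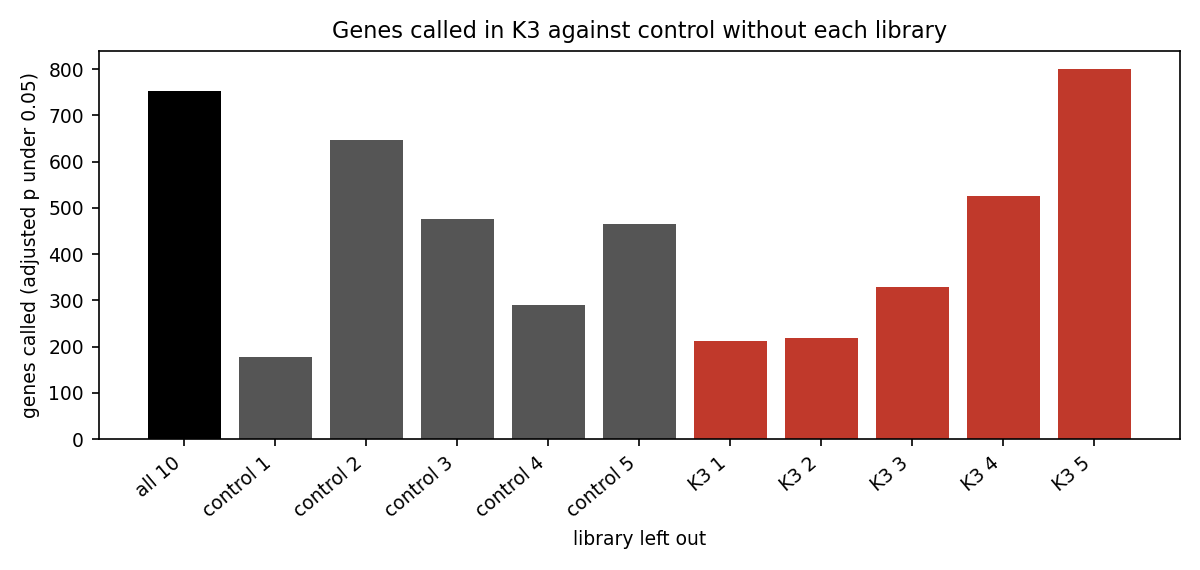
Number of genes called in K3 against control (y axis, adjusted p under 0.05) with all 10 libraries (black) and without each control (grey) or K3 (red) library (x axis). The bars run from 177 genes without control replicate 1 to 800 without K3 replicate 5, against 752 with all libraries.

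The 10 genes with the lowest adjusted p among those called in all 10 of these fits and without overlap were mostly genes of neuronal transmission, excitability and adhesion, and 9 of these 10 were higher in K3. Slc32a1, which encodes the vesicular GABA transporter of inhibitory neurons, was at 133, 143, 132, 147 and 158 CPM in control and 270.2, 287, 244, 224 and 209 CPM in K3. All K3 libraries lay above all control libraries, and the log2 fold change was 0.77 ± 0.08 (SE), adjusted p = 0.00497. Htr1a, the serotonin 1A receptor, which inhibits the neurons that hold it, was at 8.08, 8.07, 7.20, 7.19 and 8.31 CPM in control and 23.6, 19.7, 15.7, 17.4 and 13.2 CPM in K3. It rose by 1.19 ± 0.14 (SE), adjusted p = 0.00513, on the log2 scale, again with no overlap. Lhx6, a LIM homeobox transcription factor of interneurons from the medial ganglionic eminence, was at 4.23, 4.71, 2.95, 4.84 and 5.89 CPM in control and 11.6, 13.5, 10.3, 9.27 and 10.9 CPM in K3. The lowest K3 library lay well above the highest control library, with a log2 fold change of 1.28 ± 0.17 (SE), adjusted p = 0.00659.

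Chst2, a sulfotransferase of carbohydrate chains, rose, at 55.7 ± 3.27 CPM in control and 90.2 ± 11.3 CPM in K3 (mean ± SD, n = 5 each), adjusted p = 0.00513. The adhesion molecule Dscaml1 rose by 0.54 ± 0.07 (SE), adjusted p = 0.0063, on the log2 scale, the protocadherin Pcdh8 by 0.65 ± 0.09 (SE), adjusted p = 0.00659, and the kainate receptor subunit Grik3 by 0.50 ± 0.07 (SE), adjusted p = 0.00659. Neurod6, described with the cortical genes, also rose, and Mt-co2 of the mitochondrial genome fell. In the plot of single genes by library, Slc32a1, Htr1a and Lhx6 show the separation of the groups and Slc17a7 and Tcf7l2 show levels that rest more on 1 library.

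**Figure D2:**
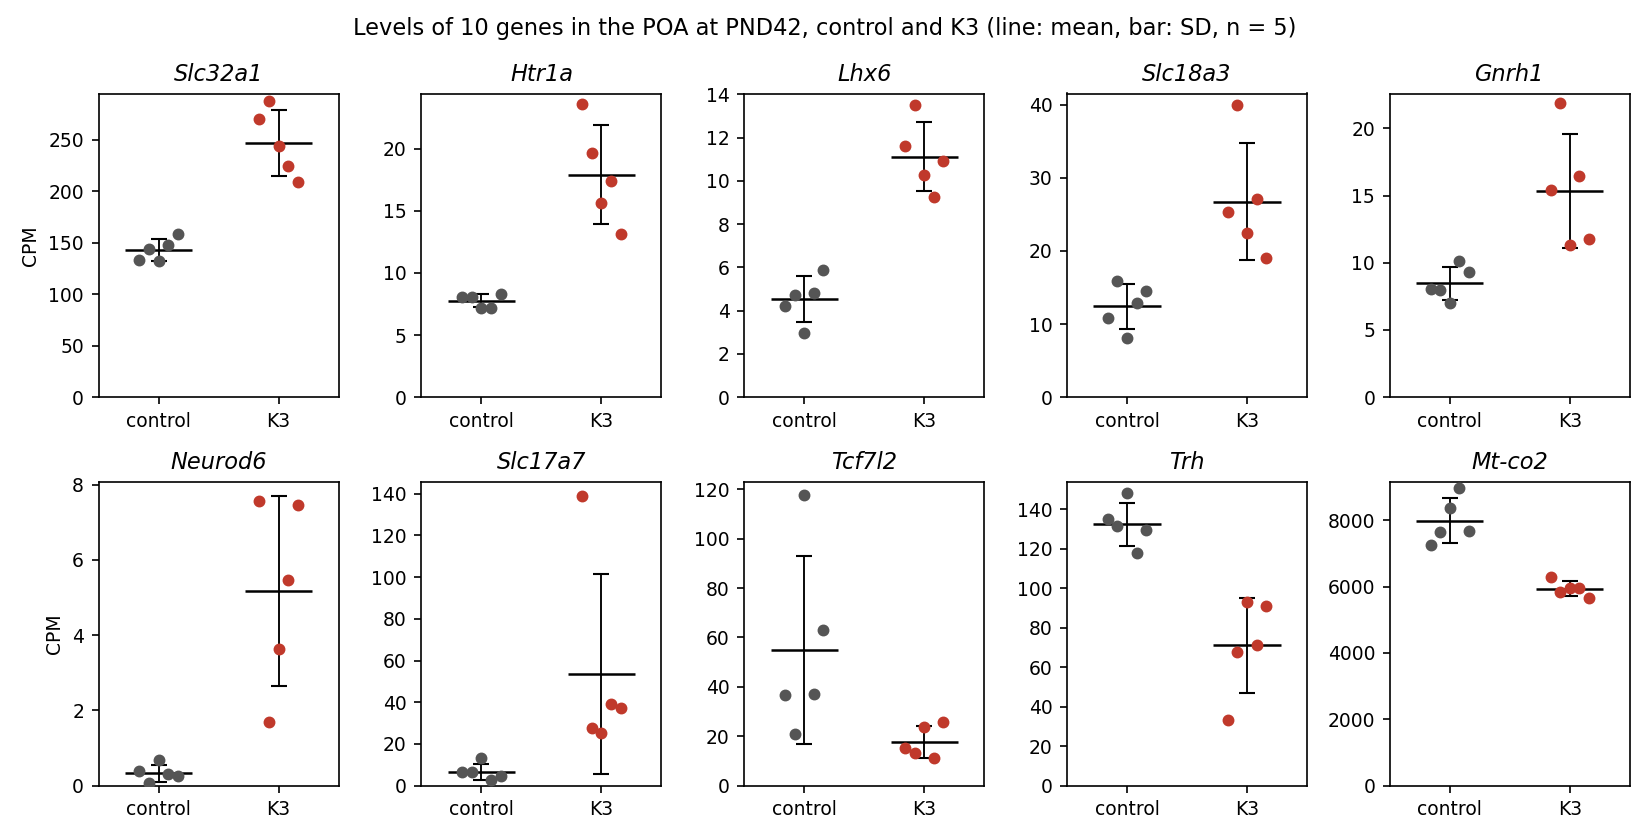
Levels (y axis, CPM, before TMM scaling) of 10 genes in each control (grey) and K3 (red) library of the POA at PND42, with the mean (line) and SD (bar) of 5 libraries. Slc32a1 lay between 132 and 158 CPM in control and between 209 and 287 CPM in K3, while 1 K3 library held 139 CPM of Slc17a7 and 1 control library 118 CPM of Tcf7l2.

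Marker genes of the septum and diagonal band, the region just rostral and dorsal of the POA that holds the cholinergic neurons of the basal forebrain, were higher in K3. Of the 12 genes of this list, all tested, 8 rose and none fell, against 3.59% of all genes tested called higher and 1.63% lower. The median log2 fold change was 0.75 against -0.01 over all genes. As with all lists here, the members were chosen with earlier results of these data known. The summed level of the list was 368, 403, 286, 338 and 324 CPM in control and 636, 576, 535, 579.5 and 490.3 CPM in K3, so the groups did not overlap. The vesicular acetylcholine transporter gene Slc18a3 was at 10.8, 15.9, 8.12, 12.8 and 14.6 CPM in control and 25.3, 39.95, 22.5, 27.1 and 19.0 CPM in K3. It rose by 1.09 ± 0.20 (SE), adjusted p = 0.0181, on the log2 scale, and the call held in 10 of the 10 fits without 1 library. Gbx1, a homeobox gene of the basal forebrain, was at 3.72, 4.53, 2.65, 3.91 and 4.90 CPM in control and 8.72, 12.3, 5.45, 9.04 and 8.36 CPM in K3. Its groups did not overlap either, and its log2 fold change was 1.14 ± 0.21 (SE), adjusted p = 0.0176. Zic1, a zinc finger gene of the septum that the thalamus also expresses, rose by 0.78 ± 0.15 (SE), adjusted p = 0.0193, and the transcription regulator Prdm16 by 1.02 ± 0.23 (SE), adjusted p = 0.0283. Others that rose were the choline transporter Slc5a7, the cation channel Trpc4 and the cholinergic transcription factor Lhx8, at log2 fold changes between 0.55 and 0.75, and Chat, the enzyme of acetylcholine synthesis, was at 0.58 ± 0.16 (SE), adjusted p = 0.056. The number of these genes called was 4 without control replicate 1, 5 without control replicate 5, K3 replicate 1 or K3 replicate 3, and 2 in a fit over all 7 groups of this age.

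The called gene with the highest fold change was Neurod6, a transcription factor of excitatory neurons of the cerebral cortex and hippocampus. It was near the limit of detection in control, with 6, 1, 11, 5 and 4 reads against 153, 29, 58, 96 and 149 reads in K3, and passed the filter on low counts through the K3 libraries alone. Its log2 fold change was 3.92 ± 0.49 (SE), adjusted p = 0.0063, and the few control reads leave the size of this fold uncertain. Slc17a7, which encodes the vesicular glutamate transporter 1 of the same neurons, was at 6.61, 6.36, 13.1, 2.79 and 4.53 CPM in control and 139, 27.4, 25.2, 39.3 and 37.2 CPM in K3. All K3 libraries lay above control, but K3 replicate 1 stood far above the other 4, and the log2 fold change of 2.99 ± 0.51 (SE), adjusted p = 0.0141 was 2.27, adjusted p = 0.0123, without it. The same library was the highest in K3 for Itpka, a kinase of dendritic spines, for Ddn, which encodes the postsynaptic protein dendrin, and for the potassium channel Kcnh3. Itpka was at 2.50, 3.06, 1.78, 1.86 and 1.61 CPM in control and 19.9, 5.46, 7.32, 5.69 and 8.21 CPM in K3, and its log2 fold change of 2.09 ± 0.36 (SE), adjusted p = 0.0141 became 1.61, adjusted p = 0.012, without K3 replicate 1. Ddn was at 53.9, 59.1, 56.8, 48.3 and 53.5 CPM in control and 295, 81.7, 135, 106 and 130.5 CPM in K3, and its log2 fold change of 1.45 ± 0.27 (SE), adjusted p = 0.018 became 1.05, adjusted p = 0.00694, without it. In both genes the groups remained apart without this library. Kcnh3 rose by 1.51 ± 0.38 (SE), adjusted p = 0.04, on the log2 scale and was at 0.97, adjusted p = 0.0568, without this library, which ends the call.

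Of the 12 tested genes of the cerebral cortex and hippocampus list, Neurod6 and Slc17a7 rose and none fell, against 3.59% of all genes tested called higher and 1.63% lower. Log2 fold changes were above 0 in 7 members and below 0 in 5, the lowest at -0.93. The median was 0.21, and 0.0043 without K3 replicate 1. The summed level of the list was 172, 173, 237, 147 and 172 CPM in control and 389.5, 203, 203, 217 and 230.1 CPM in K3, so it overlapped between the groups. Emx1 and Neurod2, which mark these neurons, did not pass the filter, and Tbr1 was at 0.50 ± 0.18 (SE), adjusted p = 0.121. Others among the 10 highest fold changes of called genes with a mean log2 CPM of at least 1 were Moap1, a modulator of apoptosis, at 1.96 ± 0.27 (SE), adjusted p = 0.00663, with the call held in 10 of the 10 fits, the chloride channel Ano2, at 2.28 ± 0.49 (SE), adjusted p = 0.0266, and at 1.90, adjusted p = 0.0568, without K3 replicate 1, and Mepe, a phosphoglycoprotein of the extracellular matrix, at 1.28 ± 0.23 (SE), adjusted p = 0.0172. Moap1 was at 1.15, 1.47, 1.23, 0.930 and 1.98 CPM in control and 5.25, 8.23, 6.01, 3.92 and 3.35 CPM in K3, with no overlap.

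The immediate early genes, which neurons transcribe within minutes of activity, gave positive log2 fold changes in all 24 members tested, with a median of 0.67. But only 3 of them passed the test, all higher, against 3.59% of all genes tested called higher. Arc, whose protein acts in synaptic plasticity, was at 14.8, 23.5, 15.7, 18.6 and 24.0 CPM in control and 90.2, 40.7, 46.6, 34.9 and 22.7 CPM in K3. K3 replicate 5 lay within the control range, and the log2 fold change was 1.27 ± 0.29 (SE), adjusted p = 0.031. Egr4 was at 1.77 ± 0.43 (SE), adjusted p = 0.0354, and Gadd45b at 0.92 ± 0.22 (SE), adjusted p = 0.0318, while Fos was at 0.61 ± 0.29 (SE), adjusted p = 0.214. The summed level of the list was 217, 378, 235, 317 and 404 CPM in control and 639.8, 506, 489.6, 411 and 289.5 CPM in K3, with overlap. No member was called without control replicate 1, control replicate 3, control replicate 4 or K3 replicate 2, 1 was called without K3 replicate 1 or 3, and 7 were called without K3 replicate 5.

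Marker genes of the thalamus, which lies caudal and dorsal of the POA, were lower in K3. Of the 13 genes tested, 5 fell and 1 rose, against 1.63% of all genes tested called lower and 3.59% higher. The median log2 fold change of the list was -1.03, and -0.52 without control replicate 3. The gene that rose was Zic1, which the septum list also holds, and the 5 that fell were Ramp3, Tcf7l2, Gbx2, Slc17a6 and Calb2. The summed level was 714, 586, 1428, 659 and 846 CPM in control and 569.7, 564, 619, 568 and 569 CPM in K3. Control replicate 3 stood above all others, and control replicate 2 lay within the K3 range. Tcf7l2, a transcription factor of the Wnt pathway, was at 36.7, 20.8, 118, 37.1 and 63.1 CPM in control and 15.4, 13.1, 23.7, 11.0 and 25.7 CPM in K3. Its log2 fold change of -1.64 ± 0.40 (SE), adjusted p = 0.0362 was -1.16, adjusted p = 0.056, without control replicate 3. Shox2, a homeobox gene of thalamic neurons and the gene with the lowest fold change, had 42, 11, 316, 23 and 97 reads in control and 6, 4, 12, 1 and 16 in K3. Its log2 fold change of -3.80 ± 0.88 (SE), adjusted p = 0.0303 was -2.64, adjusted p = 0.0486, without that library. Ramp3, which alters the ligand choice of calcitonin family receptors, was at -1.74 ± 0.45 (SE), adjusted p = 0.0427, and at -1.06, adjusted p = 0.0537, without it. Gbx2, a homeobox gene of the thalamus, was at -1.03 ± 0.26 (SE), adjusted p = 0.0396, and at -0.88, adjusted p = 0.0775, without it.

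Slc17a6, which encodes the vesicular glutamate transporter 2 of thalamic and hypothalamic neurons, was at 203, 177, 345, 174 and 225 CPM in control and 100.2, 147, 141, 159.9 and 151 CPM in K3. Every K3 library lay below every control library, with a log2 fold change of -0.70 ± 0.18 (SE), adjusted p = 0.0396, and of -0.49, adjusted p = 0.0491, without control replicate 3. Cbln1, a secreted organizer of synapses, was at 52.8, 40.8, 95.0, 54.8 and 59.95 CPM in control and 12.5, 23.8, 39.6, 26.8 and 33.3 CPM in K3, also with no overlap, and fell by 1.17 ± 0.27 (SE) on the log2 scale, adjusted p = 0.0296. Without control replicate 3 its log2 fold change was -0.95, adjusted p = 0.054. The number of thalamus genes called lower was 2 without control replicate 3 or 4, 1 without control replicate 1 or 5 or K3 replicate 1, 2, 3 or 4, and 0 in a fit over all 7 groups of this age, which pools the spread of all of them. The septal genes were higher and the thalamic genes lower in the same comparison, and the part of either region in the other results was not tested.

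Among the 22 tested genes of GnRH neurons and their kisspeptin, neurokinin and RFRP inputs, 2 rose and none fell, with a median log2 fold change of 0.04. The shares over all genes tested were 3.59% called higher and 1.63% lower. Gnrh1, which encodes the GnRH precursor, was at 8.02, 7.95, 7.01, 10.1 and 9.30 CPM in control and 15.4, 21.9, 11.3, 16.4 and 11.8 CPM in K3. Every K3 library lay above every control library, and the log2 fold change was 0.84 ± 0.17 (SE), adjusted p = 0.0221. The call was lost without control replicate 1, at 0.82, adjusted p = 0.0549, and a second identifier with the same symbol (ENSRNOG00000013433) held almost no reads and did not pass the filter. Tacr3, the receptor for neurokinin B, was at 12.6, 14.2, 10.03, 9.42 and 12.3 CPM in control and 16.0, 18.0, 14.6, 16.4 and 18.6 CPM in K3. Its groups did not overlap either, and its log2 fold change of 0.50 ± 0.12 (SE), adjusted p = 0.0337 was 0.53, adjusted p = 0.0644, without control replicate 1. Kiss1, the kisspeptin gene, lay between 0.449 and 3.04 CPM in control and between 1.83 and 3.76 CPM in K3, with a log2 fold change of 0.72 ± 0.37 (SE), adjusted p = 0.255. Mkrn3, a ubiquitin ligase tied to the timing of puberty, was at 0.70 ± 0.22 (SE), adjusted p = 0.0806. In this list no gene was called without control replicate 1, 1 was called higher without control replicate 3, 4 or 5 or K3 replicate 1, 2 or 4, and 2 were called lower without K3 replicate 5.

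Of the 22 steroid receptors and cofactors tested, 2 rose and none fell, against 3.59% of all genes tested called higher and 1.63% lower. The median of the list was 0.18, and both calls held in all 10 fits without 1 library. Esrra, the estrogen-related receptor alpha, an orphan receptor of energy metabolism, was at 18.5, 22.5, 25.5, 19.3 and 25.2 CPM in control and 37.8, 40.1, 38.3, 33.5 and 28.9 CPM in K3. It did not overlap and had a log2 fold change of 0.67 ± 0.11 (SE), adjusted p = 0.013. The receptors of estradiol and progesterone did not pass the test, with log2 fold changes of -0.30 ± 0.16 (SE), adjusted p = 0.275, for Esr1 and 0.19 ± 0.13 (SE), adjusted p = 0.415, for Pgr.

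None of the 15 tested steroid-synthesizing enzymes and none of the 24 tested genes of cholesterol synthesis was called in either direction, and their medians were 0.05 and 0.02. DESeq2 called 0 and 1 of them, and without K3 replicate 5 edgeR called 1 of the steroid-synthesizing enzymes lower. Cyp51, the lanosterol demethylase that azoles inhibit in fungi, was at 309, 271, 260.2, 272 and 288 CPM in control and 278, 318, 278, 291 and 291 CPM in K3. The groups overlapped throughout, and the log2 fold change was 0.04 ± 0.05 (SE), adjusted p = 0.69. Cyp19a1, the aromatase that makes estradiol from testosterone, was at -0.71 ± 0.26 (SE), adjusted p = 0.124. In the PPAR and RXR list 2 of 21 genes rose and none fell, against 3.59% of all genes tested called higher and 1.63% lower. The coactivator Ppargc1a rose by 0.40 ± 0.09 (SE), adjusted p = 0.0286, and the transcription factor Klf15 by 0.55 ± 0.11 (SE), adjusted p = 0.0238, on the log2 scale. Pparg itself did not pass the filter on low counts. In this list none was called without K3 replicate 2, and 1 was called without control replicate 1, 3, 4 or 5 or K3 replicate 1 or 3.

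**Figure D3:**
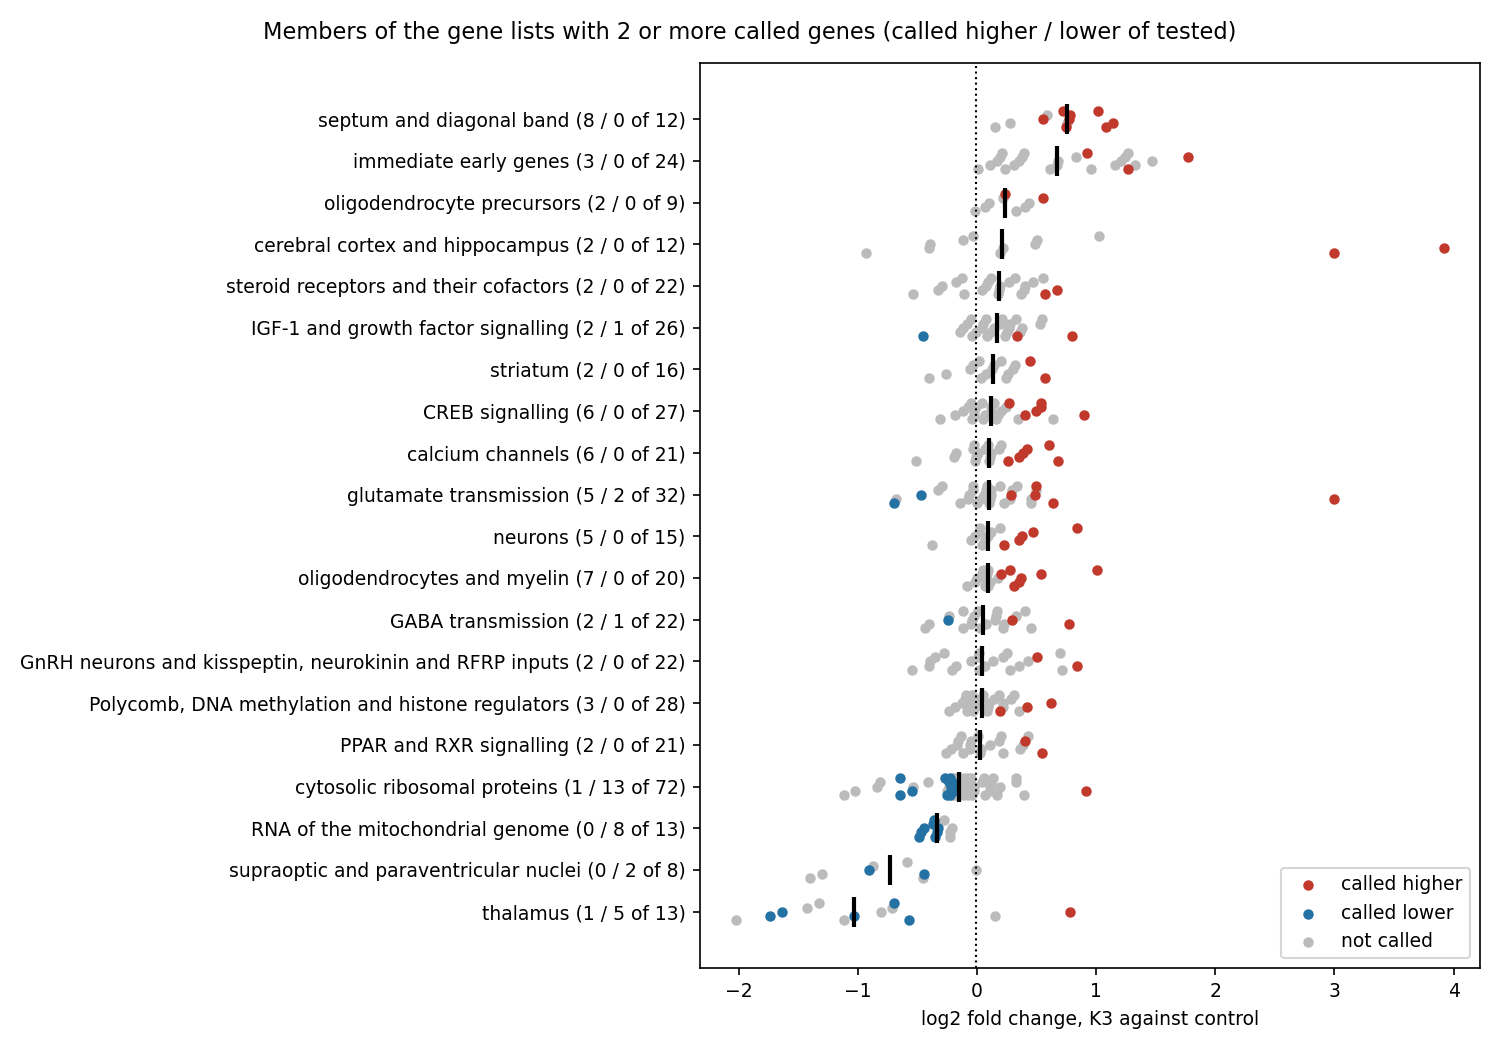
Log2 fold change in K3 against control (x axis) of every tested member (points) of each gene list with at least 2 called genes (y axis, with the number called higher, lower and tested), coloured by call, with the median of the list (bar) and of all genes tested (dotted line). The septum and diagonal band list lies highest, at a median of 0.75, and the thalamus list lowest, at -1.03, or -0.52 without control replicate 3.

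In 3 further signalling lists the calls ran mostly upward, as the plot of list members shows. So did the calls over all genes tested, with 3.59% higher and 1.63% lower. Of 27 tested genes of CREB signalling, through which cyclic AMP and calcium reach transcription, 6 rose and none fell. They were the adenylyl cyclases Adcy1, at 0.90 ± 0.22 (SE), adjusted p = 0.0362, and Adcy9, at 0.50 ± 0.10 (SE), adjusted p = 0.0236, the CREB coactivator Crtc1, at 0.54 ± 0.12 (SE), adjusted p = 0.0266, and the protein kinase C genes Prkca, Prkcb and Prkce, at log2 fold changes between 0.27 and 0.54. Creb1 itself was at 0.34 ± 0.14 (SE), adjusted p = 0.167. Of 21 tested calcium channel subunits 6 rose and none fell, among them the R-type channel Cacna1e, at 0.68 ± 0.17 (SE), adjusted p = 0.0423, the T-type channel Cacna1h, at 0.42 ± 0.11 (SE), adjusted p = 0.0482, and the auxiliary subunits Cacng8, at 0.61 ± 0.13 (SE), adjusted p = 0.0266, and Cacng5, at 0.38 ± 0.08 (SE), adjusted p = 0.0268. Of 32 genes of glutamate transmission 5 rose and 2 fell. Beside Slc17a7 and Grik3, the metabotropic receptor Grm5 rose by 0.64 ± 0.16 (SE), adjusted p = 0.0423, and the glial transporter Slc1a2 by 0.49 ± 0.12 (SE), adjusted p = 0.037, on the log2 scale, and beside Slc17a6 the kainate receptor subunit Grik1 was at -0.47 ± 0.09 (SE), adjusted p = 0.0205. Without control replicate 1, no gene of CREB signalling and 1 calcium channel gene was called, and without K3 replicate 1 it was 1 of each. The other fits without 1 library called 1 to 5 genes of CREB signalling, with 1 without K3 replicate 2, 2 without control replicate 4 or K3 replicate 3 and 3 without control replicate 5. For calcium channels they called 2 without control replicate 5 or K3 replicate 3 and 3 without control replicate 3, control replicate 4, K3 replicate 2 or K3 replicate 4. For glutamate transmission, 2 were called higher without control replicate 3 or K3 replicate 1 and 3 without control replicate 5 or K3 replicate 3, none was called lower without K3 replicate 2 and 1 without control replicate 1 or 5 or K3 replicate 1, 3 or 4, and the fit over all 7 groups called 1 in each direction.

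Of 22 genes of GABA transmission, Slc32a1 and the synthesizing enzyme Gad1 rose and the transporter Slc6a11 fell. For this list and those that follow here, the shares over all genes tested were 3.59% called higher and 1.63% lower. Gad1 was at 709.6, 767, 559.6, 601 and 613 CPM in control and 851, 764, 804, 766 and 842 CPM in K3. Control replicate 2 lay within the K3 range, and the log2 fold change was 0.30 ± 0.08 (SE), adjusted p = 0.0479, with the call held in 1 of the 10 fits without 1 library. Slc6a11, the GABA transporter of astrocytes, was at -0.24 ± 0.06 (SE), adjusted p = 0.0296, and no gene of the list was called lower without control replicate 1, 2, 3 or 5 or K3 replicate 1 or 3. Of 26 genes of IGF-1 and growth factor signalling 2 rose, the insulin receptor substrate Irs2, at 0.34 ± 0.08 (SE), adjusted p = 0.0283, and the binding protein Igfbp4, at 0.80 ± 0.22 (SE), adjusted p = 0.049, and the binding protein Igfbp5 fell, at -0.46 ± 0.09 (SE), adjusted p = 0.0207, while Igf1 was at 0.23 ± 0.19 (SE), adjusted p = 0.481. None of that list was called higher without control replicate 1, 3 or 4 or K3 replicate 1, 1 was in each other fit without 1 library, and none was called lower without control replicate 1 or K3 replicate 1. Of 28 regulators of chromatin and DNA methylation 3 rose, among them the Polycomb subunit Cbx6, at 0.19 ± 0.05 (SE), adjusted p = 0.039, and the histone deacetylase Hdac4, at 0.42 ± 0.09 (SE), adjusted p = 0.0266. The Polycomb subunit Cbx7 was at -0.04 ± 0.06 (SE), adjusted p = 0.759, and the DNA methyltransferase Dnmt3a lay just outside the threshold, at 0.31 ± 0.08 (SE), adjusted p = 0.0502, though its groups did not overlap. No gene of this list was called without control replicate 1 or 4 or K3 replicate 1, 2 or 3. None of 19 clock genes was called, and Per3 was at -0.23 ± 0.07 (SE), adjusted p = 0.083.

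Among the cell type lists, oligodendrocyte genes gave the most calls. Of 20 tested genes 7 rose and none fell, against 3.59% of all genes tested called higher and 1.63% lower, and the median was 0.09. Among the members that rose are transcription factors of the lineage. Nkx6-2 was at 1.01 ± 0.22 (SE), adjusted p = 0.0272. Olig1 was at 97.7, 108, 98.6, 119 and 123 CPM in control and 142, 191, 178, 151 and 138 CPM in K3, with no overlap, and had a log2 fold change of 0.54 ± 0.10 (SE), adjusted p = 0.0171. Olig2 followed at 0.37 ± 0.06 (SE), adjusted p = 0.013, and Sox10 at 0.35 ± 0.08 (SE), adjusted p = 0.0299, while the myelin gene Mbp was at 0.08 ± 0.09 (SE), adjusted p = 0.621. The summed level of the list overlapped, at 24730.0 to 28170.0 CPM in control and 24270.0 to 30770.0 CPM in K3. The number called was 2 without K3 replicate 2, 3 without control replicate 1 or 4, and 4 without K3 replicate 3.

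The counts of the next lists stand beside 3.59% called higher and 1.63% lower over all genes tested. Of 9 tested genes of oligodendrocyte precursors 2 rose, Sox6 at 0.55 ± 0.13 (SE), adjusted p = 0.0337, and Vcan at 0.23 ± 0.06 (SE), adjusted p = 0.0499. Neither was called without control replicate 1, 3 or 4 or K3 replicate 1, 2, 3 or 4, and 1 was called without control replicate 5. Of 15 pan-neuronal genes 5 rose and none fell, the splicing factor Rbfox3, at 0.35 ± 0.06 (SE), adjusted p = 0.0162, the RNA-binding protein Celf4, at 0.84 ± 0.17 (SE), adjusted p = 0.0211, and the 3 neurofilament genes Nefl, Nefm and Nefh, at log2 fold changes between 0.23 and 0.47, while the presynaptic genes Snap25, Syt1 and Syp lay between 0.01 and 0.09. The number of pan-neuronal genes called was 1 without control replicate 1 or K3 replicate 2, 2 without control replicate 4 or 5 or K3 replicate 1 or 4 and in the fit over all 7 groups, and 3 without control replicate 3. Of 14 microglial genes Csf1r fell, at -0.16 ± 0.04 (SE), adjusted p = 0.0479, and no gene of this list was called in the fits without 1 library other than that without K3 replicate 5. Of 13 astrocyte genes Slc1a2 alone was called, and none without control replicate 3 or 5 or K3 replicate 1, 2 or 3. Of 3 tested genes of the pituitary list Chga, a granin that neurons also hold, rose by 0.35 ± 0.05 (SE), adjusted p = 0.0102, on the log2 scale, and the luteinizing hormone subunit Lhb was at -0.22 ± 0.20 (SE), adjusted p = 0.526. No gene was called of 16 of endothelium and mural cells, 12 of meninges, 8 of choroid plexus, 11 of ependyma and tanycytes and 5 of blood. Of 16 striatal genes 2 rose, among them Scn4b, at 0.57 ± 0.11 (SE), adjusted p = 0.0193, and the dopamine receptors Drd1 and Drd2 were at 0.30 ± 0.41 (SE), adjusted p = 0.692, and 0.26 ± 0.11 (SE), adjusted p = 0.167. In the striatal list 1 gene was called higher in each fit without 1 library other than those without control replicate 2 or K3 replicate 2, and none in the fit over all 7 groups.

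Of 27 tested neuropeptide genes none rose and 1 fell, against 3.59% of all genes tested called higher and 1.63% lower. The median of the list was -0.28, and -0.09 without control replicate 3. The number that fell was 0 without control replicate 1, 3 or 4 or K3 replicate 2 or 4, 2 without control replicate 2 or K3 replicate 3 and 5 without K3 replicate 5. Trh, which encodes thyrotropin-releasing hormone, was at 135, 132, 148, 118 and 129 CPM in control and 33.0, 67.5, 93.0, 71.1 and 90.8 CPM in K3. All K3 libraries lay below all control libraries, and the log2 fold change of -0.91 ± 0.20 (SE), adjusted p = 0.0282 was -0.90, adjusted p = 0.0643, without control replicate 1. Trh also belongs to the 8 tested genes of the supraoptic and paraventricular nuclei, of which 2 fell, none rose and the median was -0.73, and the other that fell was Caprin2, an RNA-binding protein of vasopressin neurons, at -0.45 ± 0.11 (SE), adjusted p = 0.0354. Of these nuclei no gene was called without control replicate 1 or 4 or K3 replicate 2, and 1 was called without control replicate 3 or 5 or K3 replicate 1, 3 or 4. Avp, the vasopressin gene, was at 89.7, 22.6, 75.1, 21.9 and 98.1 CPM in control and 0.644, 6.52, 45.3, 18.6 and 53.8 CPM in K3. The values ran over a wide range in both groups, and the log2 fold change was -1.30 ± 0.71 (SE), adjusted p = 0.279. Oxt, the oxytocin gene, was at -0.59 ± 0.56 (SE), adjusted p = 0.554. Of 8 genes of the suprachiasmatic nucleus the transcription factor Six3 rose, at 0.55 ± 0.15 (SE), adjusted p = 0.0466, though none was called without 1 library other than control replicate 2 or K3 replicate 5, and of 9 genes of the arcuate and ventromedial hypothalamus and 2 of the mammillary region none was called.

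RNA of the mitochondrial genome was lower in K3. Of its 13 genes 8 fell and none rose, against 1.63% of all genes tested called lower and 3.59% higher. All 13 log2 fold changes were below 0, and the median was -0.34. The summed level was 73940.0, 78110.0, 69920.0, 89280.0 and 78850.0 CPM in control and 69090.0, 62120.0, 62050.0, 63160.0 and 53000.0 CPM in K3, so the highest K3 library lay just below the lowest control library. Mt-co2, a subunit of cytochrome c oxidase, was at 7258, 7639, 8381, 8983 and 7677 CPM in control and 6284, 5839, 5965, 5941 and 5650.1 CPM in K3, and its log2 fold change was -0.44 ± 0.06 (SE), adjusted p = 0.00659, with the call held in 10 of the 10 fits without 1 library. Mt-nd3 and Mt-nd4, subunits of complex I, were at -0.49 ± 0.08 (SE), adjusted p = 0.0122, and -0.47 ± 0.08 (SE), adjusted p = 0.0141. Of 66 tested nuclear genes of oxidative phosphorylation 1 rose and none fell, with a median of -0.03, and none rose without control replicate 1, 2, 3 or 4 or K3 replicate 1, 2 or 3. Of 72 cytosolic ribosomal protein genes 13 fell and 1 rose, with a median of -0.15. Most ribosomal protein genes have processed copies elsewhere in the genome, so the values of members such as 1 identifier each of Rpl32 and Rps27a, which fell, at -0.65 ± 0.16 (SE), adjusted p = 0.0383, and -0.65 ± 0.17 (SE), adjusted p = 0.0427, are uncertain. Rpl36, the member that rose, was at 0.92 ± 0.23 (SE), adjusted p = 0.0382. The number of mitochondrial genes called was 4 without control replicate 1, control replicate 4 or K3 replicate 2 and 5 without control replicate 5. That of ribosomal protein genes called lower was 2 without control replicate 1 or K3 replicate 1, 3 without control replicate 4 or K3 replicate 2, 5 without K3 replicate 3, 6 without control replicate 5, 8 without K3 replicate 4 and 28 with DESeq2.

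Some genes of motile cilia fell in K3. The group was chosen after its values were seen, by symbol alone, so it may hold genes that do not act in motile cilia. It took the symbols of axonemal dyneins, radial spokes, tektins, cilia- and flagella-associated proteins, SPAG, ROPN, ODF and DRC proteins, and some single genes. The group holds 68 tested genes. Of them 14 fell and none rose, against 1.63% of all genes tested called lower and 3.59% higher. Over all 68 the median log2 fold change was -0.38, with 61 values below 0. Dnah12, a dynein heavy chain, was at 44.8, 27.0, 29.96, 28.9 and 35.7 CPM in control and 18.3, 19.0, 23.5, 22.5 and 11.8 CPM in K3. All K3 libraries lay below all control libraries, with a log2 fold change of -0.82 ± 0.17 (SE), adjusted p = 0.0255. Tekt1, a tektin of ciliary microtubules, was at 19.2, 13.7, 14.9, 15.0 and 16.5 CPM in control and 10.4, 8.34, 12.3, 12.6 and 9.81 CPM in K3, also with no overlap, and its log2 fold change was -0.59 ± 0.13 (SE), adjusted p = 0.0262. Tekt3 was at -1.02 ± 0.24 (SE), adjusted p = 0.0312, Spag8 at -0.86 ± 0.18 (SE), adjusted p = 0.0249, Tekt2 at -0.71 ± 0.15 (SE), adjusted p = 0.0267, Dnah1 at -0.66 ± 0.15 (SE), adjusted p = 0.0274, Dnah7 at -0.66 ± 0.16 (SE), adjusted p = 0.0385, and Dnah6 at -0.63 ± 0.16 (SE), adjusted p = 0.039. The gene called in all 10 fits without 1 library was Cfap300, at -0.55 ± 0.10 (SE), adjusted p = 0.0187. The summed level of the group was 1839, 1576, 1516, 1548 and 1600.0 CPM in control and 1473, 1431, 1536, 1502 and 1356 CPM in K3, with overlap. Of the 11 tested genes of ependyma and tanycytes none was called, 5 log2 fold changes were above 0 and 6 below, and the median was -0.07. Ependyma is the cell layer that carries motile cilia along the ventricles, and the list does not separate it from tanycytes. The number of cilia genes called was 1 without control replicate 1 or K3 replicate 2, 3 without K3 replicate 1 and in the fit over all 7 groups, 5 without control replicate 4, 6 without control replicate 5, 8 without K3 replicate 3, 9 without K3 replicate 5 and 24 with DESeq2.

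A short motif, chosen with these values known, was counted in the promoters of the cilia genes. RFX transcription factors, which switch on genes of cilia, bind the X-box, and GTTGCNA is close to 1 of its arms. Among RefSeq promoters of the assembly GRCr8, from 250 bases before to 50 bases after each annotated start, GTTGCNA on either strand lay in 48.3% of the 60 cilia genes with a promoter, in 9 of the 14 that fell and 20 of the 46 with a promoter that were not called, against 11.1% of all 27457 genes of the table. It lay in 10.4% of the 10648 tested genes with a promoter. Each gene counts once, and no other motif was searched. The stretches given here run 5′ to 3′ on the strand of the gene and end at the base before the start or 40 bases past the motif, and the motif is in capitals, which read TNGCAAC where it lies on the opposite strand. They come from chr10:48228778-48228858 (+ strand), chr16:1944613-1944699 (+ strand), chr5:143907725-143907800 (- strand), chr16:6523447-6523520 (- strand), chr9:62756616-62756673 (- strand), chr4:106842365-106842428 (- strand) and chr10:57479122-57479200 (- strand), in the order of the sequences, and are shown because these are the 7 tektin and dynein genes that fell, each with the motif between 99 and 12 bases before the start.
Tekt3: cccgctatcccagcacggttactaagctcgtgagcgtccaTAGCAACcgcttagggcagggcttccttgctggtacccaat
Dnah12: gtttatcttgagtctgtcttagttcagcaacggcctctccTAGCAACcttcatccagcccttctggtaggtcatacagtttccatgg
Tekt2: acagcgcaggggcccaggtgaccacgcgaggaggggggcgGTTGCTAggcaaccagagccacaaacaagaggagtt
Dnah1: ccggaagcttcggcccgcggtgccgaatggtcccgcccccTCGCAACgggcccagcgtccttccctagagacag
Dnah7: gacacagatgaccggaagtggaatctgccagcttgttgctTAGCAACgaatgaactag
Dnah6: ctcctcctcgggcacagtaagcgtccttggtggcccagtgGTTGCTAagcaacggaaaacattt
Tekt1: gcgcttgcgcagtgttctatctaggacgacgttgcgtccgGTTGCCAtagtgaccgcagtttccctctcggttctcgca

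A match is a run of letters and not a measured binding site, and binding of RFX factors was not measured in these rats.

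K3 was also set directly against the higher doses of KTZ, 6 mg/kg bw/day (K6) and 12 mg/kg bw/day (K12), at the same age with no control library in the fit. Against K6, 0 of 14466 genes were called with edgeR, while 1294 had an unadjusted p under 0.05 and DESeq2 called 28. K6 replicate 5 held 5862 CPM of choroid plexus genes, against 25.2 to 33.44 CPM in the other K6 libraries. Without K6 replicate 5 edgeR also called 0 genes against K6. Against K12, 3 of 14574 genes were called with edgeR, which is 0.0206%, while 1670 had an unadjusted p under 0.05 and DESeq2 called 172. The 3 genes were higher in K3. Neurod6 had 0, 4, 0, 2 and 4 reads in K12, too few for a fold, and an adjusted p of 0.00305. Slc17a7 differed by 3.67 ± 0.53 (SE), adjusted p = 0.0425, and Adcy1 by 1.07 ± 0.15 (SE), adjusted p = 0.0399, on the log2 scale. Slc17a7 ran from 1.70 to 7.18 CPM in K12 and from 2.79 to 89.5 CPM in K6, so single K6 libraries reached the K3 range.

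Set against the same control libraries, K6 gave 0 called genes with edgeR, with 1538 at an unadjusted p under 0.05, and K12 gave 1, with 1620, against 752 in K3. Of the 752 genes called in K3, 747 had a value in K6 against control, and 738 of these had the same sign there. These comparisons share their control, which favours the same sign, and the counts of calls are not a test of the doses against each other. Slc32a1 had means of 143 CPM in control, 247 in K3, 213 in K6 and 193 in K12. The difference of K3 from K6 was 0.22 ± 0.10 (SE), adjusted p = 0.562, and that from K12 was 0.33 ± 0.08 (SE), adjusted p = 0.193. Htr1a had means of 7.77, 17.9, 12.0 and 11.3 CPM in the same order, and Gnrh1 of 8.48, 15.4, 11.3 and 14.8 CPM. The summed level of the septum and diagonal band list was 305 to 526 CPM in K6 and 403 to 521 CPM in K12, that of the thalamus list 455 to 1092 and 439.8 to 509 CPM, and that of the mitochondrial RNA 50990.0 to 75790.0 and 58920.0 to 77400.0 CPM, as plotted by library.

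**Figure D4:**
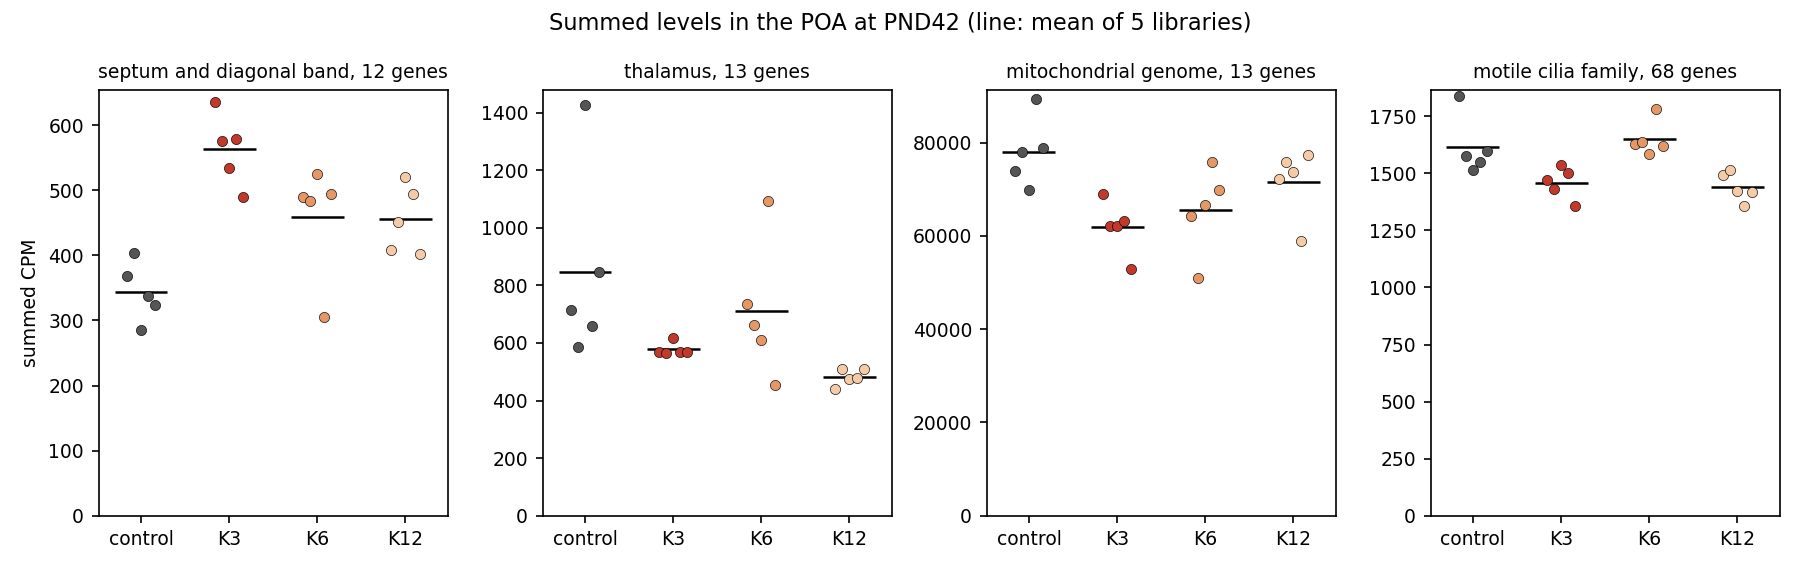
Summed levels (y axis, CPM) of 4 groups of genes in each library of control, K3, K6 and K12 of the POA at PND42, with the mean of 5 libraries (line). K3 lies at 490.3 to 636 CPM for septum and diagonal band genes against 286 to 403 CPM in control, and at 53000.0 to 69090.0 CPM for mitochondrial RNA against 69920.0 to 89280.0 CPM.

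The effect of K3 on the POA differed between PND42 and PND22, the age at which exposure ended. The interaction of age and exposure over 20 libraries called 1894 of 14816 genes, which is 12.8%, with the effect higher at PND42 in 1131, or 7.63%, and lower in 763, or 5.15%. At PND22 itself 285 genes were called, 99 higher and 186 lower. Of the 752 genes called at PND42, 744 had a value at PND22, and 128 of these had the same sign there. At PND22 control replicate 4 stood apart in its mammillary genes, with a mean log2 CPM of 2.91 against -0.21 to -0.16 in the other 4, and without it the interaction called 1959 genes and 107 of 746 genes had the same sign. At PND90 K3 against control gave 0 called genes with edgeR, with 1067 at an unadjusted p under 0.05.

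Pan-neuronal and septal genes had effects that differed between the ages. Rbfox3, at 34.7 ± 1.38 CPM in control and 44.8 ± 3.43 CPM in K3 (mean ± SD, n = 5 each) at PND42, lay between 52.3 and 65.5 CPM in control and between 38.5 and 42.9 CPM in K3 at PND22. Of the 15 pan-neuronal genes 8 had a higher effect at PND42 by the interaction and none a lower one, and 4 were called lower in K3 at PND22. Rbfox3 was lower in K3 at PND22 and higher at PND42, by -0.56 ± 0.07 (SE), adjusted p = 0.00345, and 0.35 ± 0.06 (SE), adjusted p = 0.0162, and the effects differed by 0.91 ± 0.09 (SE), adjusted p = 9.34e-06. Chga turned in the same way, from -0.40 ± 0.05 (SE), adjusted p = 0.00456, at PND22 to 0.35 ± 0.05 (SE), adjusted p = 0.0102, at PND42, with an adjusted p of 9.34e-06 for the difference. Of the 12 septum and diagonal band genes 7 had a higher effect at PND42 by the interaction and none a lower one, and their median log2 fold change was -0.66 at PND22, where none of them was called, against 0.75 at PND42. Without the PND22 control library with mammillary transcripts, 9 of them differed. Slc18a3 ran from 1.75 to 30.5 CPM in control and from 1.16 to 7.54 CPM in K3 at PND22, a wider range than at PND42, and its effects differed by 3.03 ± 0.70 (SE), adjusted p = 0.00823.

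Slc32a1 and Htr1a were not called at PND22, with log2 fold changes of -0.18 ± 0.16 (SE), adjusted p = 0.595, and -0.22 ± 0.15 (SE), adjusted p = 0.486, and their effects differed between the ages by 0.95 ± 0.20 (SE), adjusted p = 0.00442, and 1.41 ± 0.21 (SE), adjusted p = 0.000549. Trh, lower in K3 at PND42, was at 0.34 ± 0.21 (SE), adjusted p = 0.421, at PND22, and the effects differed by -1.25 ± 0.33 (SE), adjusted p = 0.0154. For Gnrh1 no difference between the ages was detected, with 0.66 ± 0.36 (SE), adjusted p = 0.356, at PND22 and an interaction of 0.18 ± 0.42 (SE), adjusted p = 0.821. Mt-co2 fell at both ages, by 0.28 ± 0.06 (SE), adjusted p = 0.0393, at PND22, and the interaction was -0.17 ± 0.09 (SE), adjusted p = 0.228. Of the 61 named genes that rose at PND42, 46 had a called difference between the ages in that direction, and of the 25 that fell 13 had one, as the plot of both ages shows. Over all genes tested the interaction called 7.63% higher and 5.15% lower. The named genes were called on the PND42 difference, which is part of the interaction, so their selection favours calls in that direction.

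**Figure D5:**
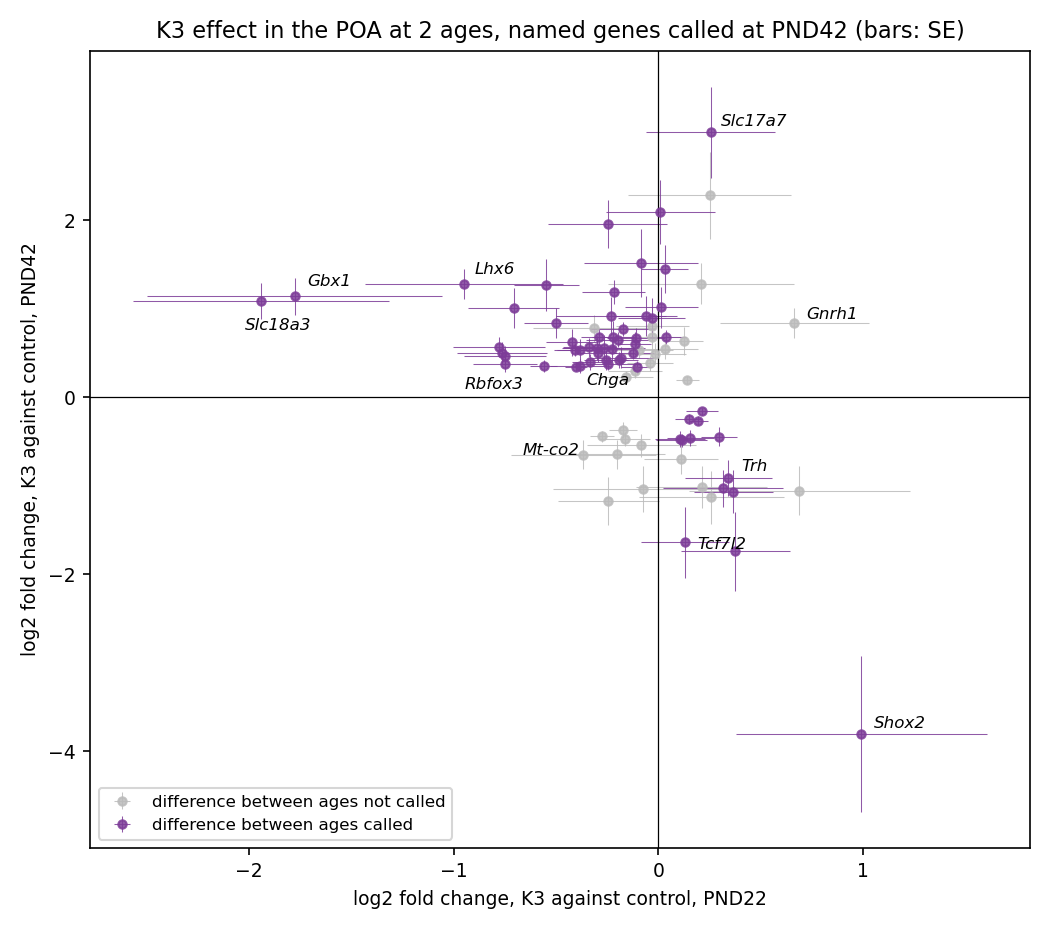
Log2 fold change in K3 against control at PND22 (x axis) and PND42 (y axis) of the named genes called at PND42 with a value at both ages, with SE bars, coloured by whether the difference between the ages was called. Slc18a3 lies at -1.94 at PND22 and 1.09 at PND42, Gnrh1 is above 0 at both ages, and Mt-co2 below 0 at both.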

How the data were processed

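RNA was sequenced as paired reads from stranded messenger RNA libraries of the POA and MBH. The authors aligned the reads with STAR to the rat genome build Rnor_6.0 and counted them per Ensembl gene with featureCounts, after base calling with bcl2fastq 2.20, and deposited raw read counts in 1 table per tissue. The strand setting of the counting and the treatment of reads with several matches are not given in the sources used here, so genes with near-identical copies or antisense partners are uncertain.

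The deposited counts were used as they stand, with each column matched to its library by the rat number, dose and age in its name. Counts were tested with the quasi-likelihood test of edgeR 4.0.16 in R 4.3.3, two-sided, with TMM scaling, filterByExpr at a minimum count of 10, and Benjamini-Hochberg adjustment over all genes tested. Genes were called at an adjusted p under 0.05. All adjusted p-values come from this fit unless DESeq2 is named. The fit of K3 against control held the 10 libraries only, that of the ages held 20 libraries with an interaction term, and the direct comparisons with K6 and K12 held 10 libraries each. CPM values are reads scaled to a common library total, before TMM, and are not per gene length, so levels are compared between libraries and not between genes. Between 15592294 and 20184414 reads per library stood behind these values, and a count of 0 allows up to 3 reads. Each SE was derived as the absolute log2 fold change over the square root of the F statistic of the edgeR test. Intervals and errors measure the spread between libraries.

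Genes were named by rule as the 10 highest and 10 lowest log2 fold changes among called genes with a mean log2 CPM of at least 1, up to 4 called members of each list and direction with the defining gene of a pathway, and the 10 lowest adjusted p among genes called without any 1 library and without overlap. The members and all 39 lists were chosen with earlier results of these data known. Genes given with a value outside this rule, the groups of motile cilia, potassium channel and serotonin receptor genes, and the motif were chosen after their values were seen. Alternatives were DESeq2 1.42.0, size factors by the median of ratios, no filter, a fit over all 7 groups of the age, the replicate number as a block, and each library left out. Leaving out PND22 control replicate 4 from the effect at PND22 was added after the data were seen. The fits were tested on simulated counts with known changes, all larger than the median change of the called genes. Recovery of changes of that median size was not tested. Results for some genes are not reported here. Figures were drawn with matplotlib 3.10.9.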

Additional observations from a re-analysis of the deposited data

Results flagged for a closer look

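In 204 groups of 5 libraries, 1 library stood apart from the other 4 by more than Dixon's critical value of 0.71 in 9 cases, where chance gives about 10.2. Of these, 5 concerned K3 replicate 1. In 4 of them it held 139 CPM of Slc17a7 against 25.2 to 39.3 in the other K3 libraries, 19.9 CPM of Itpka against 5.46 to 8.21, 15.7 CPM of Kcnh3 against 3.24 to 5.96 and 295 CPM of Ddn against 81.7 to 135.

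Control replicate 3 held 19.4 CPM of Shox2 against 0.648 to 6.01 in the other control libraries and 51.4 CPM of Ramp3 against 7.42 to 18.5. Control replicate 1 held 3.14 CPM of Ano2 against 0.923 to 1.47. K3 replicate 5 held 1.30 CPM of Lrrc71, a leucine-rich repeat gene called lower in K3, against 4.15 to 4.41 in the other K3 libraries, and without it the log2 fold change was -0.84 with an adjusted p of 0.00786 with edgeR.

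The effect of K3 differed between PND42 and PND22 in 1894 genes by the interaction term.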

How the results depend on the processing

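In K3 against control, DESeq2 called 1465 genes and the fit with the replicate number as a block 411, against 752, and the fits without 1 library called 177 to 800. With size factors by the median of ratios the count was 720, without the filter 731, and over all 7 groups 550. In K3 against K6 the count of 0 became 28 with DESeq2 and 0 to 1 without 1 library. In K3 against K12 the count of 3 became 172 with DESeq2, 1 with the replicate block and 1 to 21 without 1 library, with 21 without K3 replicate 5. The difference between the ages gave 1363 to 2212 calls without 1 library and 2343 with DESeq2. The cause of these differences was not tested. Replicate numbers did not pair the libraries, since the correlations of same-numbered deviations were 0.01, -0.03, -0.09, 0.21 and 0.08 and 1 of 5 libraries, replicate 4, correlated best with its own number.

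Of 102 named genes over 10 fits without 1 library, 655 values stayed on the same side of the threshold, 362 lost and 2 gained the call. Cbx7, not called, ran from -0.0722 to 0.0002 over these fits and changed sign without K3 replicate 5, with an adjusted p of 0.999. Among the other settings 440 values stayed, 66 lost the call, 35 of them in the fit over all 7 groups and 25 with the block, and 4 gained it. With 5 libraries a group and a median change of 0.45 in genes called higher, smaller changes may have been missed at this depth and spread.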

Other observations

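The voltage-gated potassium channel alpha subunits, a group chosen after its values were seen, were called in 6 of 33 tested genes, all higher in K3. Over all genes tested 3.59% were called higher. The median log2 fold change of the group was 0.23 against -0.01 over all genes. Kcnf1, a subunit that modifies other channels, was at 22.5, 27.0, 21.9, 24.6 and 24.5 CPM in control and 48.5, 32.9, 38.0, 33.0 and 34.6 CPM in K3. All K3 libraries lay above all control libraries, and Kcnf1 rose by 0.62 ± 0.11 (SE) on the log2 scale, adjusted p = 0.0157 with edgeR, with the call held in all 10 fits without 1 library. The others were Kcng1, Kcna1, Kcnh3, Kcnc1 and Kcnq5. The number called was 1 without control replicate 1, 2 without control replicate 4, K3 replicate 1 or K3 replicate 2, and 3 without control replicate 3 or 5.

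Of 10 tested serotonin receptors, a group also chosen after its values were seen, Htr1a was called, against 3.59% of all genes tested called higher. None of the 10 had a log2 fold change below 0. No gene was called among 24 of heat shock and the unfolded protein response or 24 of interferon response and antigen presentation.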
